A study of Mus musculus with 9 samples.

Results

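This section describes 54 homeobox genes outside the Hox clusters, of 33212 genes in the count table, in αTC1 cells with and without an inhibitor of EZH2. They were taken by symbol from a list of developmental homeobox families, all 54 were found, and genes without counts were kept. Poly-A RNA was sequenced after 7 days with the solvent DMSO (5 libraries) or with 4 µM EPZ011989 (4 libraries). αTC1 is a glucagon-producing line established from a pancreatic tumour of mice that carried a viral T antigen under the glucagon promoter, and both groups were grown in the same low-glucose medium. The labels call the libraries biological replicates without saying whether the cultures were separate. P-values thus cover the spread among the 9 libraries, which may be technical. All results come from 1 cell line, 1 dose and 1 time.

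Homeobox genes encode transcription factors that bind DNA through a homeodomain and set regional and cell identity in the embryo. EZH2 is the catalytic subunit of the Polycomb complex PRC2, which methylates histone H3 at silent genes, and promoters of developmental homeobox genes are among the best known PRC2 targets. In the pancreas a few homeobox factors build and keep islet cells, among them Isl1, Pax6 and Nkx6-1, while most genes described here act in brain, limb, muscle, heart or kidney. The comparison of EPZ011989 with DMSO asks how inhibition of EZH2 alters the transcripts of αTC1 cells.

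Libraries held 60274140 to 74651782 counts, and levels are given as CPM (counts of a gene relative to the scaled library size). A fragment was taken to add up to 4 counts in this table, so a gene at 0 in a library may lie anywhere up to 12 counts (3 fragments), or 0.158 to 0.203 CPM; this covers counting error only. EPZ011989 replicate 2 stood apart from the other EPZ011989 libraries on the second principal component (20.2% of the variance), and replicate 4 lay at the opposite end. Means below are given with their SD, n = 5 for DMSO and n = 4 for EPZ011989, DMSO first. Glucagon mRNA (Gcg), which defines alpha cells, had means of 19280 ± 804 and 18633 ± 2338 CPM. Ezh2 itself was at 199 ± 5 and 209 ± 7 CPM, and its inhibition at the protein level was not measured. Of 10 alpha cell markers 3 rose. For these and the markers below, the shares of all genes tested were 16.2% that rose and 7.96% that fell. Fibroblast markers rose for 5 of 10 genes, of which 6 were tested. Their summed level was 7.31 to 10.2 CPM in DMSO and 32.8 to 43.8 CPM with EPZ011989. Col3a1, Dcn, Lum, Acta2 and Thy1 were at 0 in every DMSO library. Thy1, which rose, could thus be tested only through EPZ011989 libraries. Neuronal markers rose for 4 of 10 and fell for 1, and their summed level overlapped (759 to 817 and 665 to 806 CPM). Summed duct markers were at 13.4 to 17.4 and 27.7 to 32.5 CPM, leukocyte markers at 1.52 to 2.25 and 5.29 to 6.82, endothelial markers at 0.118 to 0.311 and 0.702 to 1.47, and acinar markers at 8.999 to 13.4 and 5.88 to 7.96. Beta cell markers were at 59.95 to 63.7 and 62.0 to 74.2 CPM, with Ins1, Pdx1 and Ucn3 at 0 in all 9 libraries. Of these 9 markers 5 were tested, 3 rose and 1 fell. Delta, PP and epsilon cell markers were at 1357 to 1806 and 966 to 1608 CPM. Of these 5 markers 3 were tested and 1 rose, Sst, which was at 0 in every DMSO library. The part of other cell types in the results below was not tested.

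Of the 54 genes, 13 rose and 1 fell with EPZ011989 at an adjusted p under 0.05 (edgeR quasi-likelihood test, Benjamini-Hochberg adjustment over 14754 genes). Of all genes tested 16.2% rose and 7.96% fell. That base leaves out genes below the filter on low counts, which the 54 include. The 13 were Lhx2, Lhx4, Lhx5, Lhx6, Six3, Dlx3, Dlx4, Msx1, Nkx2-5, Prrx1, Pbx3, Irx3 and Irx6, and Nkx6-2 fell. Another 11 were tested and did not pass, and 29 stayed below the filter on low counts and were not tested. Lhx2, Lhx5, Six3, Dlx3, Prrx1 and Irx6, with few or no counts in DMSO, passed that filter only through their EPZ011989 libraries. Lhx3 passed it through 3 EPZ011989 libraries and DMSO replicate 3, and was not tested when that DMSO library was left out. A share of the tested members thus has no meaning as support. Among the 25 tested members the groups did not overlap for 12 with EPZ011989 higher and for 0 with EPZ011989 lower, against 16.1% and 8.77% of all tested genes. Lhx2, Lhx5, Six3, Dlx3, Prrx1 and Irx6 are among the 12, so the same limit holds here. Without EPZ011989 replicate 2, 15 members rose and 2 fell, and over all genes 2939 rose and 2377 fell in place of 2388 and 1174. The count of all genes that fell was 781 without EPZ011989 replicate 3, and 776 with upper-quartile factors, where 77.9% of all calls were rises, compared with 67.0% here.

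**Figure D1:**
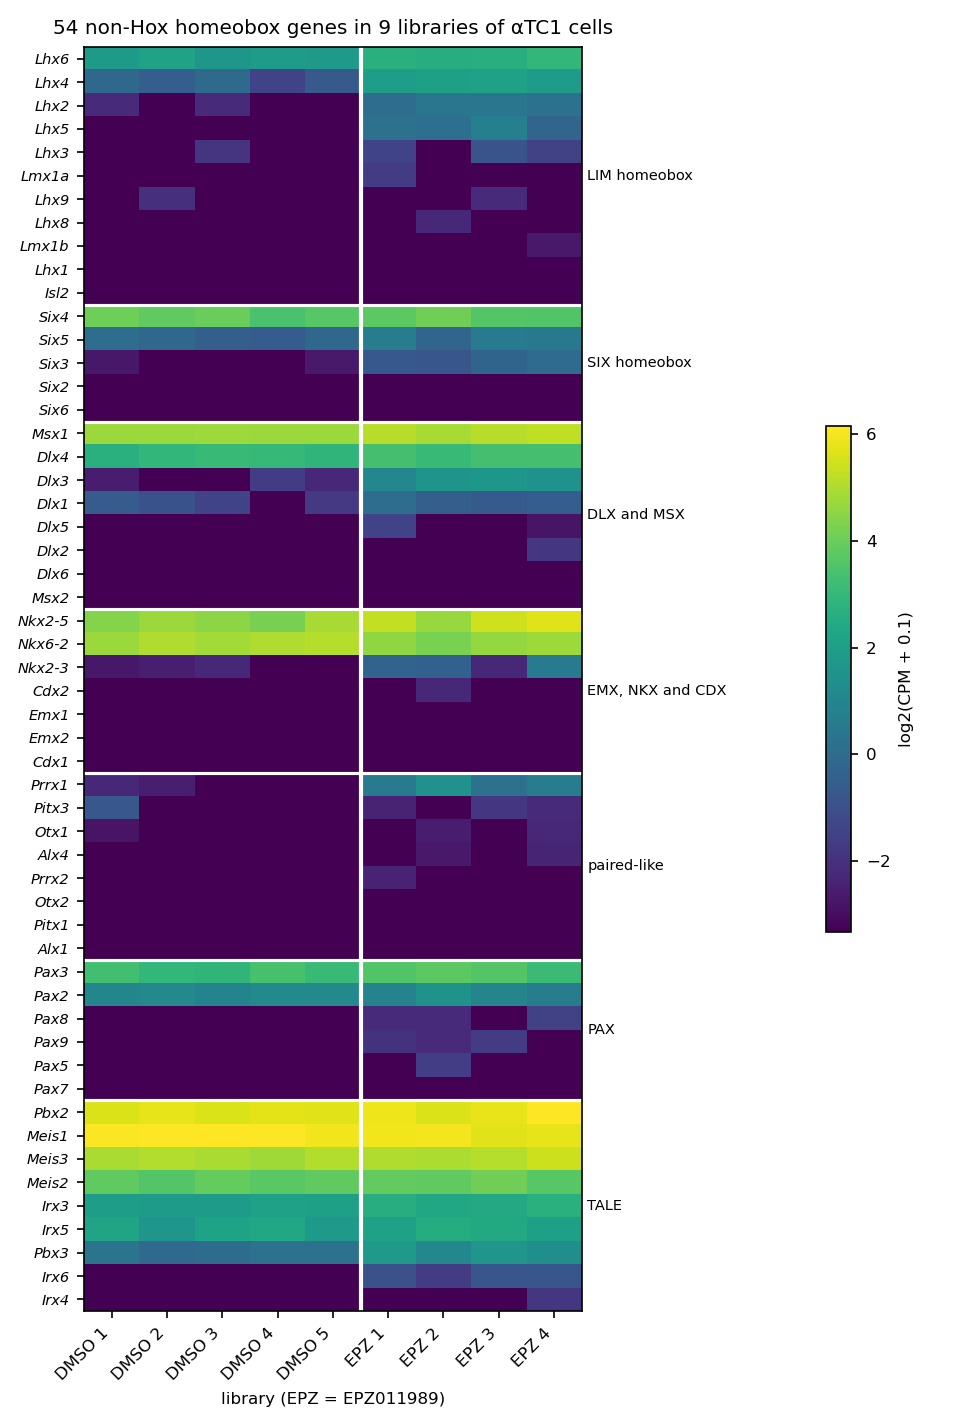
Level of each of the 54 homeobox genes (rows, by family) in each of the 9 libraries (columns), as log2(CPM + 0.1). The darkest colour is a count of 0. Dark rows on the left that brighten on the right, such as Lhx2, Lhx5, Dlx3 and Prrx1, are genes with few or no counts in DMSO and counts in all 4 EPZ011989 libraries.

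Each DMSO library held a count for 18 to 25 of the 54 genes and each EPZ011989 library for 29 to 34. Counting only genes with at least 12 counts, the ranges were 18 to 19 in DMSO and 26 to 29 with EPZ011989, so the groups did not overlap. In all 5 DMSO libraries 27 genes had a count of 0. Of these, 14 had counts with EPZ011989 and 13 had none in any of the 9 libraries. The 13 were Lhx1, Isl2, Six2, Six6, Dlx6, Msx2, Emx1, Emx2, Cdx1, Otx2, Pitx1, Alx1 and Pax7, whose usual sites are forebrain, eye, kidney, limb, craniofacial mesenchyme, muscle and gut. No member had counts in DMSO alone. Of all 33212 genes in the count table, 14497 were at 0 in every DMSO library. How many of those had counts with EPZ011989 was not obtained. These counts thus cannot show whether the gain in detection is particular to homeobox genes.

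LIM homeobox genes join a homeodomain to paired LIM zinc fingers and pattern neurons, pituitary and limb. Of 11 members 4 rose, 1 was tested without passing and 6 were not tested. Over all genes tested 16.2% rose. The limit of the filter given above holds for this and the other family counts below. The promoters of Lhx2, Lhx4 and Lhx6, called paralogs with an entry in the RefSeq table (GRCm38.p6), are shown from 250 bases before to 50 after a RefSeq start, with each CG dinucleotide in capitals. Lhx2 is at chr2:38339031-38339330 (plus strand), Lhx4 at chr1:155741978-155742277 (minus strand) and Lhx6 at chr2:36105359-36105658 (minus strand).
Lhx2: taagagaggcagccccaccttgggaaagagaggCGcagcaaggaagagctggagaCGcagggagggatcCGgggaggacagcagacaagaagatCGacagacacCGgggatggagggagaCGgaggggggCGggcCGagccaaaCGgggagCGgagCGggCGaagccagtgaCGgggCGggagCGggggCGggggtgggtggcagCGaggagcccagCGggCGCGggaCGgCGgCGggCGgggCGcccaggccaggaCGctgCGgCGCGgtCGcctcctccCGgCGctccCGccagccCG
Lhx4: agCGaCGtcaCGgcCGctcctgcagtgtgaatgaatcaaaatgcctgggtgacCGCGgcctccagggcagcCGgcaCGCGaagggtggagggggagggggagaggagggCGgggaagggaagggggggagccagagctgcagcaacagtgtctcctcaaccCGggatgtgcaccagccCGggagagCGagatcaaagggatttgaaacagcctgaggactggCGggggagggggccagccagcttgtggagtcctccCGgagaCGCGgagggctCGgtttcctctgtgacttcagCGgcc
Lhx6: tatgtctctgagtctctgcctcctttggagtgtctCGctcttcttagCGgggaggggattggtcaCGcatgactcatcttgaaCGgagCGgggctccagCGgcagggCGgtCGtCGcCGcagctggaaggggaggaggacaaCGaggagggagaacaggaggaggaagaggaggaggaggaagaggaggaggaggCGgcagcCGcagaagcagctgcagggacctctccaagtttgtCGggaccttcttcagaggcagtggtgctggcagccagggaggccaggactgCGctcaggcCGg
They hold 34, 19 and 16 CG dinucleotides at a GC content of 74.7%, 66.3% and 63.3%. The Lhx4 start lies 9657 bases from the outer end of the gene in GENCODE.

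Lhx2, needed for eye, forebrain and hair follicle stem cells (chromosome 2, 38339281 to 38369733, GRCm38), was at 0.122, 0, 0.125, 0 and 0 CPM in DMSO replicates 1 to 5 and at 0.941, 1.22, 1.23 and 1.09 CPM in EPZ011989 replicates 1 to 4. Every EPZ011989 library was above every DMSO library, with a log2 fold change of 4.41 ± 0.86 (SE, edgeR adjusted p = 0.00334). Without DMSO replicate 1 or 3, the libraries that held its DMSO counts, it was 5.005 or 5.03. Lhx4, a pituitary and motor neuron factor (chromosome 1, 155698031 to 155751684), was already present in DMSO at 0.798, 0.604, 0.858, 0.270 and 0.529 CPM. It reached 3.76, 4.01, 4.19 and 3.66 CPM with EPZ011989, the smallest relative spread among the genes that rose from under 1 CPM, and its log2 fold change was 2.66 ± 0.28 (edgeR adjusted p = 5.31e-05). Lhx5, a forebrain and hippocampal factor (chromosome 5, 120431699 to 120441223), had no count in DMSO and 1.05, 0.999, 1.60 and 0.744 CPM with EPZ011989. Set against the floor of 12 counts per DMSO library, it was at least 6.23-fold higher (edgeR adjusted p = 1.86e-04).

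Lhx6, which directs cortical interneurons and tooth mesenchyme (chromosome 2, 36081953 to 36105408), was the LIM member with the highest level per kilobase of exon in DMSO. It lay at 3.49, 4.32, 3.09, 3.61 and 3.34 CPM in DMSO and at 6.36, 5.85, 6.22 and 7.56 CPM with EPZ011989, with no overlap (log2 fold change 0.86 ± 0.13, edgeR adjusted p = 7.45e-04). Lhx3, the close paralog of Lhx4 in pituitary and motor neurons, had counts in 1 DMSO library (0.166 CPM) and in 3 EPZ011989 libraries (0.253 to 0.448 CPM) and did not pass (edgeR adjusted p = 0.160). Lhx8, Lmx1a and Lmx1b had counts in 1 EPZ011989 library each and none in DMSO, and Lhx9 in 1 library of each group. The paralogs thus covered the whole range from no counts to several CPM within 1 family.

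Sine oculis homologues, which work with EYA cofactors in eye, muscle and kidney precursors, had 1 riser among 5, against 16.2% of all genes tested. Six3, an eye and forebrain determinant (chromosome 17, 85613608 to 85629302), was at 0.0541, 0, 0, 0 and 0.0572 CPM in DMSO and at 0.504, 0.479, 0.725 and 0.884 CPM with EPZ011989 (log2 fold change 4.72 ± 0.82, edgeR adjusted p = 0.00165). The DMSO libraries together held 8 counts, or 2 fragments of 4 counts, so the ratio of 29.1 between the means has an exact counting interval of 7.36 to 238. Without DMSO replicate 5 the log2 fold change was 5.31. Six4, a muscle and kidney factor, was the highest of them per kilobase and lay at 10.6 to 16.3 CPM (median 14.3) in DMSO and 11.9 to 16.9 CPM with EPZ011989 and did not pass (log2 fold change -0.04 ± 0.15, edgeR adjusted p = 0.895). Its sign changed with upper-quartile factors, with library size alone and without DMSO replicate 1 or EPZ011989 replicate 3. Six5, linked to lens and muscle, was at 0.574 to 0.934 CPM (mean 0.751 ± 0.145) in DMSO. With EPZ011989 it was at 0.760 to 1.52 CPM (mean 1.24 ± 0.33) and did not pass (edgeR adjusted p = 0.0841). EPZ011989 replicate 2 was the only EPZ011989 library within the DMSO range, at 0.760 CPM. Without it Six5 passed (log2 fold change 0.89, adjusted p = 0.0234), and over all alternatives its adjusted p ran from 0.0234 to 0.245.

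DLX and MSX genes act in forebrain, branchial arches, limb and placenta. Of 8 members Dlx3, Dlx4 and Msx1 rose, against 16.2% of all genes tested. Dlx3, a factor of placenta, skin and bone (chromosome 11, 95120119 to 95125296), was at 0.0677, 0, 0, 0.219 and 0.114 CPM in DMSO and at 1.99, 2.91, 3.10 and 2.76 CPM with EPZ011989. The lowest EPZ011989 library was thus far above the highest DMSO library (log2 fold change 5.09 ± 0.69, edgeR adjusted p = 3.58e-04). Without DMSO replicate 4, which held the most DMSO counts, the log2 fold change was 5.81. Dlx4 lies 15.2 kb from Dlx3 on the opposite strand (95140447 to 95146263) and was already expressed, at 6.32, 7.66, 8.46, 8.09 and 7.14 CPM in DMSO. With EPZ011989 it was at 10.2, 8.47, 10.04 and 10.1 CPM, and the lowest EPZ011989 library was just above the highest DMSO library (log2 fold change 0.36 ± 0.11, edgeR adjusted p = 0.0359). The Dlx4 call was lost when any single DMSO library or EPZ011989 replicate 1, 3 or 4 was left out (adjusted p = 0.0508 to 0.140) and without a filter (0.0530). It held in 9 of 19 alternatives, with an adjusted p of 0.0133 to 0.143 over all of them.

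Msx1, a repressor of differentiation in limb, tooth and palate (chromosome 5, 37820485 to 37824583), was among the more abundant members. It lay at 26.0, 26.5, 27.1, 25.9 and 26.3 CPM in DMSO and at 34.8, 29.7, 34.9 and 37.8 CPM with EPZ011989 (log2 fold change 0.38 ± 0.08, edgeR adjusted p = 0.00439, and 1.72e-04 to 0.0512 over all alternatives). The DMSO libraries spanned little more than 1 CPM, and EPZ011989 replicate 2 was the lowest of its group. Msx2, its paralog, had no count in any library. Dlx1, a forebrain interneuron factor, was at 0.292 ± 0.213 and 0.686 ± 0.183 CPM and did not pass (edgeR adjusted p = 0.261), and its exons share 335 bases with the antisense gene Dlx1as. Its neighbour Dlx2 had counts in 1 EPZ011989 library, and Dlx5 in 2.

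**Figure D2:**
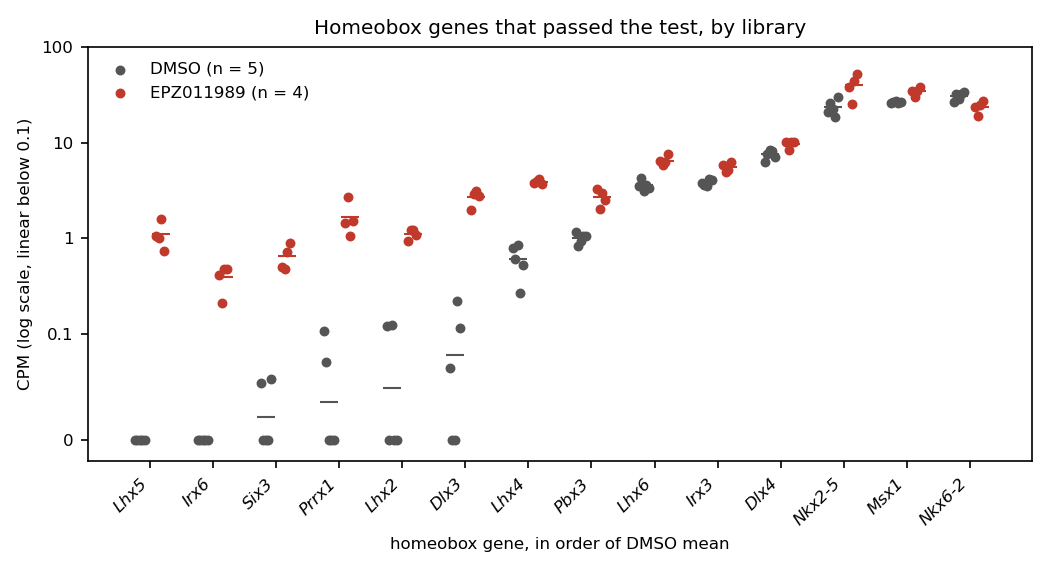
CPM by library of the 14 homeobox genes that passed the test, with DMSO in grey, EPZ011989 in red and horizontal bars for the means. The vertical axis is logarithmic above 0.1 CPM and linear below. Dlx3, Six3, Prrx1, Lhx2, Lhx5 and Irx6 sit near or at 0 in DMSO and apart from it with EPZ011989, while Nkx2-5 and Nkx6-2 overlap between groups.

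Among the 7 EMX, NKX and CDX members, Nkx2-5 rose and Nkx6-2 fell. Nkx2-5, a cardiac factor that also marks spleen and pyloric mesenchyme (chromosome 17, 26838664 to 26845009), was at 20.8, 26.0, 22.7, 18.3 and 30.2 CPM in DMSO and at 38.6, 25.4, 44.1 and 51.8 CPM with EPZ011989 (log2 fold change 0.76 ± 0.20, edgeR adjusted p = 0.0163). EPZ011989 replicate 2 lay inside the DMSO range and the other 3 above it. Without EPZ011989 replicate 3 the call was lost (adjusted p = 0.0527), and over all alternatives its adjusted p ran from 7.57e-04 to 0.0639. Nkx6-2, a paralog of the islet factor Nkx6-1 and best known in oligodendrocytes (chromosome 7, 139579376 to 139582797), was at 26.3, 32.4, 28.4, 32.2 and 34.1 CPM in DMSO and at 23.6, 18.9, 24.8 and 27.1 CPM with EPZ011989 (log2 fold change -0.38 ± 0.12, edgeR adjusted p = 0.0362). EPZ011989 replicate 4 was above the lowest DMSO library, so the groups overlapped. The call was lost without DMSO replicate 2, 4 or 5 (adjusted p = 0.0835, 0.0797 and 0.0798), without EPZ011989 replicate 1 or 3 (0.0823 and 0.0654) and with upper-quartile factors (0.0848). Over all alternatives its adjusted p ran from 0.00958 to 0.134, and the log2 fold change from -0.47 to -0.29.

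Exons of Nkx6-2 share 246 bases with Inpp5a on the opposite strand, which was at 53.3 ± 1.7 and 53.8 ± 7.4 CPM, and the counting's use of strand is not given in the sources used here. Nkx2-3, a factor of gut and spleen mesenchyme, was not tested because EPZ011989 replicate 3 held only 8 counts. It was at 0.0541, 0.0737, 0.111, 0 and 0 CPM in DMSO and at 0.716, 0.661, 0.106 and 1.36 CPM with EPZ011989, where 3 of 4 libraries lay above every DMSO library. In a fit without a filter it passed (log2 fold change 3.82, edgeR adjusted p = 0.0151). Cdx2, a caudal factor of the intestine, had 8 counts in 1 EPZ011989 library and Cdx1 none.

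Paired-like members act in head, limb and mesenchyme, and 1 of 8 could be tested. Prrx1, a marker and regulator of limb and skin mesenchyme (chromosome 1, 163245119 to 163313710), was at 0.108, 0.0737, 0, 0 and 0 CPM in DMSO and at 1.44, 2.67, 1.07 and 1.52 CPM with EPZ011989 (log2 fold change 5.42 ± 0.80, edgeR adjusted p = 6.06e-04). With 13 counts in DMSO, about 3 fragments of 4, the ratio of 46.1 between means has an exact counting interval of 15.9 to 234. Without DMSO replicate 1 the log2 fold change was 6.34. EPZ011989 replicate 2 was the highest library. The summed fibroblast markers given above moved the same way as Prrx1, and their part in its rise was not tested. Its paralog Prrx2 had 7 counts in 1 EPZ011989 library, and Alx4, Otx1 and Pitx3 had counts in 2 or 3 EPZ011989 libraries at no more than 0.185 CPM. For Pitx3, a lens and dopamine neuron factor, the highest library was DMSO replicate 1 at 0.487 CPM.

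PAX factors carry a paired domain, joined in Pax3 and Pax7 to a complete homeodomain and in Pax2, Pax5 and Pax8 to a partial one. Pax9 was listed with this family and has neither a complete nor a partial homeodomain. Of 6 members 2 were tested and edgeR called 0. At an unadjusted p under 0.05 Pax3 was higher, DESeq2 called it too, and limma-voom called 0. Pax3, of neural crest and muscle precursors, was at 9.66, 7.69, 7.16, 10.2 and 8.12 CPM in DMSO and at 11.8, 13.4, 12.2 and 8.63 CPM with EPZ011989 (log2 fold change 0.43 ± 0.15, edgeR adjusted p = 0.0628). EPZ011989 replicate 4 lay within the DMSO range, and Pax3 passed without it (0.0157), with upper-quartile factors (0.0358), with library size alone (0.0494) and in DESeq2 (0.0460), and without EPZ011989 replicates 2 and 4 (0.0309). Its adjusted p ran from 0.0157 to 0.235 over all alternatives. Pax2, of kidney, eye and midbrain, was at 1.84 to 2.13 CPM (median 2.07) in DMSO and at 1.76, 2.76, 1.86 and 1.53 CPM with EPZ011989 (log2 fold change -0.03 ± 0.19, edgeR adjusted p = 0.939), with a sign that changed with the scaling. Pax8 and Pax9, of thyroid and of pharyngeal pouch and tooth, had no count in DMSO and counts in 3 of 4 EPZ011989 libraries each, at up to 0.267 and 0.211 CPM. Without a filter their adjusted p was 0.0551 and 0.0538 in edgeR.

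TALE factors, named for a loop extended by extra residues, include the PBX and MEIS proteins that bind DNA together with Hox and other homeodomain proteins, and the Iroquois (IRX) genes. This was the family with the highest coverage, with 8 of 9 members tested, of which Pbx3, Irx3 and Irx6 rose. The share over all genes tested was 16.2%. Pbx3, a PBX partner (chromosome 2, 34171457 to 34373142), lay at 1.15, 0.840, 0.927, 1.05 and 1.06 CPM in DMSO and at 3.27, 2.03, 2.94 and 2.53 CPM with EPZ011989, without overlap (log2 fold change 1.42 ± 0.20, edgeR adjusted p = 3.84e-04). Pbx2, a widely expressed paralog at a far higher level per kilobase, was at 49.6, 55.0, 48.0, 54.1 and 53.1 CPM in DMSO and at 59.8, 49.5, 57.1 and 70.0 CPM with EPZ011989 and did not pass (log2 fold change 0.19 ± 0.10, edgeR adjusted p = 0.201). EPZ011989 replicate 2 was again the lowest, and without it Pbx2 passed (adjusted p = 0.0244, with a range of 0.0244 to 0.597 over all alternatives). Its exons share 227 bases with Gpsm3, which was below 1 CPM in both groups. Exons of other members also overlap annotated transcripts on the opposite strand, by 896 bases for Meis1 (Gm16140), 188 for Lhx3 (Gm27196), 168 for Six3 (Gm28528), 152 for Irx6 (Gm45505), 124 for Irx3 (Irx3os), 79 for Dlx4 (Dlx4os) and 69 for Lhx5 (Gm27199). On the same strand Meis1 shares 1029 bases with Gm37818 and Lhx6 shares 104 with Gm27953, and how shared reads were assigned is not known here.

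The 3 MEIS genes did not pass. Meis1, a Hox cofactor of blood and limb, was the member with the most counts, at 68.5, 68.8, 70.0, 70.5 and 61.1 CPM in DMSO and at 62.0, 62.7, 52.1 and 55.9 CPM with EPZ011989 (log2 fold change -0.22 ± 0.08, edgeR adjusted p = 0.0610). Only DMSO replicate 5 fell into the EPZ011989 range. Meis1 passed as lower without DMSO replicate 5 (0.0266), EPZ011989 replicate 1 (0.0437) or replicate 2 (0.0171), and likewise with RLE factors (0.0474) in DESeq2 (0.0179) and without EPZ011989 replicates 2 and 4 (0.0489), and its adjusted p ran from 0.0171 to 0.178 over all alternatives. Meis2 was at 12.01 to 14.9 CPM (mean 13.7 ± 1.1) in DMSO and 12.8 to 16.7 CPM (mean 14.6 ± 1.6) with EPZ011989 (edgeR adjusted p = 0.585) and Meis3 at 27.5 to 33.1 CPM (mean 30.9 ± 2.2) and 31.3 to 42.7 CPM (mean 35.0 ± 5.2) (0.250).

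Irx3, Irx5 and Irx6, an Iroquois cluster on chromosome 8, lie within 1 Mb. Of these 3 genes 2 rose, against 16.2% of all genes tested. Irx3, of neural tube, heart and fat precursors (91798525 to 91802067), was at 3.78, 3.62, 3.54, 4.14 and 4.04 CPM in DMSO and at 5.81, 4.95, 5.14 and 6.26 CPM with EPZ011989 (log2 fold change 0.53 ± 0.12, edgeR adjusted p = 0.00667). Irx5, 556 kb away and a partner of Irx3 in heart and limb, was at 4.49, 2.99, 4.35, 5.06 and 3.34 CPM in DMSO and at 4.14, 5.77, 5.25 and 4.03 CPM with EPZ011989, overlapping and not called (log2 fold change 0.25 ± 0.18, edgeR adjusted p = 0.393). Irx6, another 298 kb on (92674288 to 92680956), had no count in DMSO and 0.411, 0.211, 0.475 and 0.477 CPM with EPZ011989, at least 2.24-fold above the floor (edgeR adjusted p = 0.00125, and 7.09e-09 to 0.0513 over all alternatives). Whether the changes of these 3 genes differ from each other was not tested. Irx4, of the chromosome 13 cluster that holds the alpha cell genes Irx1 and Irx2, had counts in 1 EPZ011989 library, while its neighbour Irx2, 626 kb away, was at 181 ± 9 and 172 ± 6 CPM.

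**Figure D3:**
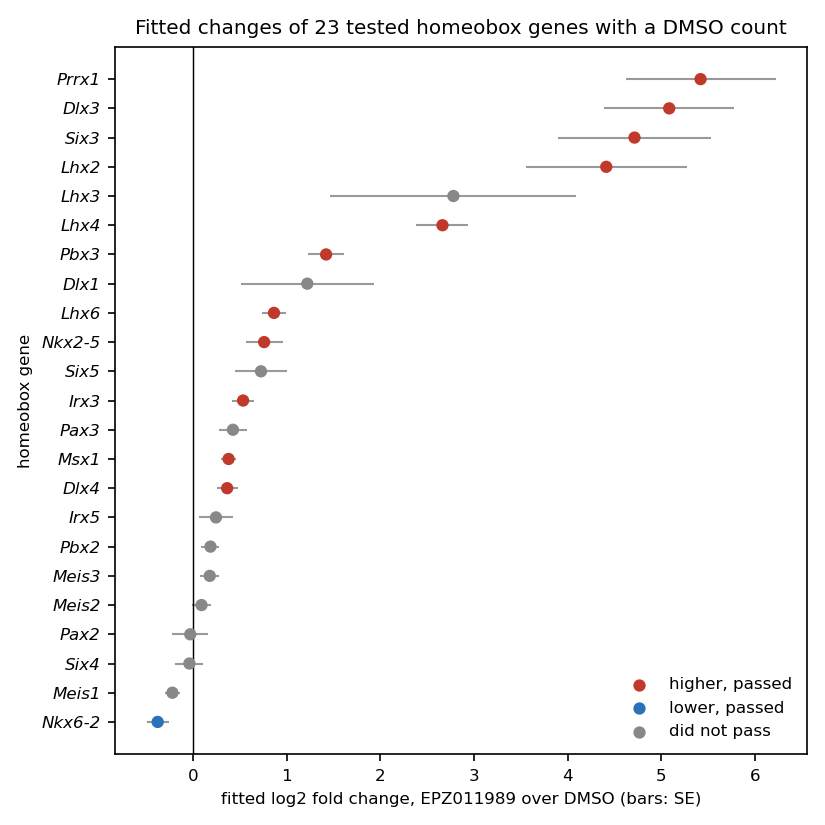
Fitted log2 fold change of EPZ011989 over DMSO with its SE for the 23 tested members that had a count in DMSO. Lhx5 and Irx6 are left out because a fitted fold against 0 depends on the prior count. Red and blue points passed the test. Changes from 2.66 to 5.42 belong to Lhx4, Lhx2, Six3, Dlx3 and Prrx1, and Lhx3 in that range did not pass.

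Six3 and the overlapping antisense gene Six3os1 both rose, Six3os1 from 0.0138 ± 0.0310 to 1.06 ± 0.28 CPM (log2 fold change 6.04 ± 0.86, edgeR adjusted p = 4.74e-04). The DMSO libraries held 5 counts of Six3os1 in all, and the ratio of 76.5 between means has an exact counting interval of 15.9 to 3648. Their exons share 106 bases, so without strand some reads of the pair cannot be assigned. Six2, 55.0 kb from Six3, had no count in any library. Lmx1b, 531 kb from Pbx3, had 4 counts in 1 EPZ011989 library.

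**Figure D4:**
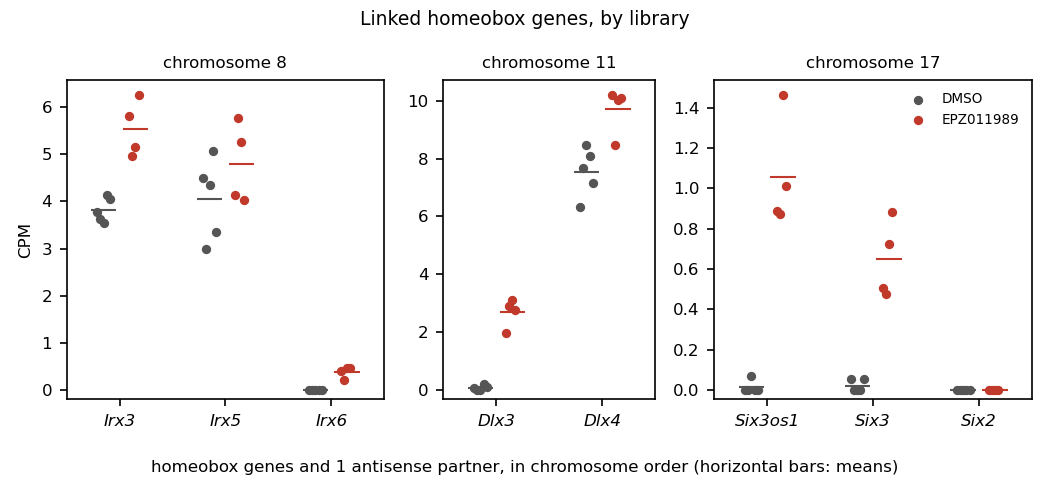
CPM by library for linked homeobox genes, with DMSO in grey, EPZ011989 in red and horizontal bars for means. Each panel has its own linear axis. Irx6, Dlx3, Six3 and Six3os1 lie at or near 0 in DMSO beside neighbours that were expressed in DMSO or had no counts in either group.

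Levels of different genes were compared only per kilobase of exon, as CPM per kb. In DMSO the order was led by Nkx6-2 (16.1 CPM per kb), Pbx2 (14.3), Nkx2-5 (13.7), Meis3 (9.75), Msx1 (8.51) and Meis1 (6.43), followed by Dlx4 (2.30). With EPZ011989 the level of Nkx2-5 was 23.2, of Pbx2 16.2 and of Nkx6-2 12.4 CPM per kb, so Nkx2-5 and Nkx6-2 exchanged places around Pbx2. Among genes under 1 CPM in DMSO, the level with EPZ011989 was 1.03 CPM per kb for Dlx3, 0.681 for Lhx4 and 0.151 for Prrx1. Summed over the LIM family, the level rose from 0.788 to 1.02 CPM per kb in DMSO libraries to 2.61 to 3.06 in EPZ011989 libraries. The TALE sum was 33.6 to 35.3 and 34.6 to 43.2 CPM per kb. Summed over all 54 genes it was 75.3 to 84.8 in DMSO and 80.7 to 111 with EPZ011989, where only replicate 2 lay within the DMSO range.

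**Figure D5:**
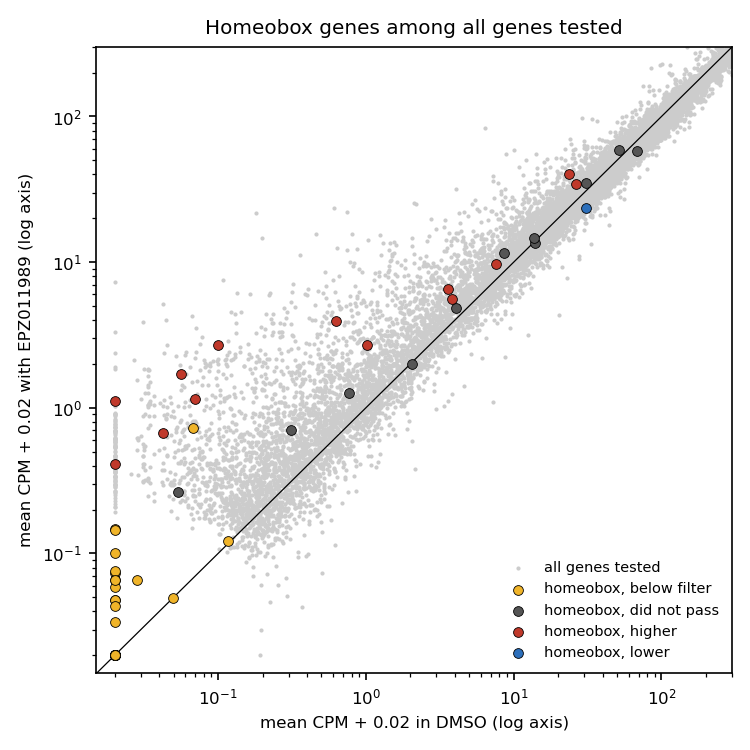
Mean CPM + 0.02 in DMSO (horizontal) and with EPZ011989 (vertical), both on log axes, for all genes tested (grey) and the 54 homeobox genes (coloured by outcome). The line marks equal levels. The 27 members at 0 in DMSO can lie only on or above the line, and 13 of them, at 0 in both groups, lie on it. Members above 0 and under 1 CPM in DMSO lie above it, with Lhx9 and Pitx3 close to it. All genes tested at that level had a median log2 fold change of 0.68. Grey points leave out genes below the filter. Members above 10 CPM lie near the line on these axes. Among them Nkx2-5, which rose, lies farthest from it (means of 23.6 and 40.0 CPM).

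Every gene with a DMSO mean of at least 1 CPM passed the filter, so at that level its dependence on EPZ011989 plays no part. Of 15 members with a DMSO mean of at least 1 CPM, 6 rose (Lhx6, Dlx4, Msx1, Nkx2-5, Irx3 and Pbx3), 1 fell and 8 did not pass. Of all 11713 genes at that level 13.0% rose and 9.95% fell. The median log2 fold change was 0.25 for these members and -0.01 for all such genes. Of the 8 members at 10 CPM or more 2 rose and 1 fell, where 8.70% and 11.8% of all such genes did. The share also depended on level below that. By mean over all 9 libraries, 33.4% of all genes tested at 1 to 10 CPM rose, and 11.7% at 10 to 100 CPM. Of the 15 members, Lhx6, Dlx4, Irx3 and Pbx3, which rose, lay in the lower band. So did Pax2, Pax3 and Irx5, which did not pass. These counts describe a list chosen with earlier results of these data known and were not tested as a set. The division by DMSO level was made after the values were seen.

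Of 70 other homeobox genes outside the Hox clusters, from a list that is not complete, 24 were tested, 12 rose and 1 fell. No count was found in any library for 21. Of all genes tested 16.2% rose and 7.96% fell, with the limit of the filter given above. Isl1, the pan-islet LIM factor, rose from 475 ± 7 to 588 ± 24 CPM, and Vax2, of the ventral eye, from 9.12 ± 1.25 to 17.2 ± 3.2 CPM. Tlx1, the spleen determinant, rose from 0.0147 ± 0.0329 to 0.740 ± 0.291 CPM, a ratio with a counting interval of 11.1 to 2586. Pbx4 rose from 7.22 ± 0.93 to 10.5 ± 1.8 CPM. Meox2, a mesoderm factor, fell from 56.8 ± 1.3 to 40.6 ± 2.2 CPM without overlap (log2 fold change -0.49 ± 0.06, edgeR adjusted p = 2.47e-04). Without DMSO replicate 3 the number of these genes that rose was 7, and without EPZ011989 replicate 2 the number that fell was 3.

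Among 24 listed cofactors that bind homeodomain proteins, some of them TALE factors such as Pknox2, 20 were tested and 8 rose. Of all genes tested 16.2% rose. The edgeR test called 0 lower, 2 were lower at an unadjusted p under 0.05, DESeq2 called 1 and limma-voom 0, and 2 were called lower without EPZ011989 replicate 2. Eya4, a member of the EYA family of coactivators, had 1 DMSO library with counts (0.0338 CPM) and was at 0.848, 4.64, 1.86 and 1.07 CPM with EPZ011989, highest in replicate 2 (edgeR adjusted p = 7.66e-05). Pknox2, a TALE partner of PBX, rose from 0.0315 ± 0.0464 to 2.26 ± 0.38 CPM (log2 fold change 6.07 ± 0.71, edgeR adjusted p = 1.18e-04). The Groucho corepressor genes Tle1 and Tle4 rose from 57.4 ± 4.1 to 78.7 ± 2.5 CPM and from 3.16 ± 0.32 to 6.70 ± 0.55 CPM. Of the antisense or divergent transcripts listed, 6 were in the table and 2 rose, Six3os1 and Pax6os1.

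The RefSeq table held 50 windows for 40 of the 54 genes. A window was called CpG-rich at a GC content of at least 50% and an observed-to-expected CG ratio of at least 0.6, counted on both strands at once since CG reads the same on each. Of the members' windows 62.0% were CpG-rich, against 33.5% of the 32851 windows of all genes. The share was 7 of 11 windows for members that rose, 9 of 13 for members tested without passing and 8 of 12 for members at 0 in all 9 libraries. Some genes have several windows, and the shares were not tested against each other. The windows of Lhx2 and Lhx4 shown above passed both limits, and that of Lhx6 had a ratio of 0.579 and did not. Lhx6 has other windows. That at 36104484 to 36104783 passed both limits (GC content 55.3%, ratio 0.791), and that at 36104011 to 36104310 did not (GC content 48.7%).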

How the data were processed

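RNA-seq libraries of αTC1 cells (5 DMSO, 4 EPZ011989) were grouped by the treatment in the labels. Gene counts, as whole numbers, were deposited by the authors. HISAT2, StringTie and DESeq2, and the build mm10, are listed in the submitters' processing notes. Their roles, the annotation and the strand setting are not given in the sources used here. A second table holds these counts divided by 1 factor per library and was not used. Counts of 1 were the most frequent small value (3970), but 4 (3046) and 5 (2732) exceeded 2 (2108) and 3 (2160). A fragment was therefore taken to add up to 4 counts, an assumption under which a gene at 0 is bounded by 12 counts.

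The 14754 genes kept by filterByExpr, with TMM factors, entered a robust quasi-likelihood fit of treatment alone (edgeR 4.0.16, R 4.3.3). P-values were two-sided and Benjamini-Hochberg adjusted, and an SE was obtained from the log2 fold change and the square root of its F. Total counts per library were 60274140 to 74651782. Replicates differed beyond sampling noise in every pair (with counts divided by 4, chi-square per degree of freedom was at least 4.02). Positions, exon lengths and overlaps come from GENCODE M21 on GRCm38, the assembly of mm10.

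The members and lists were chosen with earlier results of these data known. All called members and uncalled ones with a mean of at least 1 CPM were given by library or by range, and up to 4 called genes of each other list by smallest p. Some genes that this rule names are not reported here. Nkx2-3, Lhx3, Dlx1, Pax8 and Pax9 were named outside this rule, after their values were seen, as was the division by DMSO level. Alternatives were other scaling (RLE, upper-quartile, library size), no filter or a stricter one (1 CPM in 4 libraries), other tools (limma-voom 3.58.1, DESeq2 1.42.0), counts divided by 4, a block for the replicate number, and omission of libraries.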

Additional observations from a re-analysis of the deposited data

Results flagged for a closer look

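In EPZ011989 replicate 2, Dlx4 was at 8.47 CPM while the other 3 EPZ011989 libraries lay between 10.04 and 10.2 CPM, a gap of 0.902 of the group's range. In DMSO replicate 5, Meis1 was at 61.1 CPM while the other 4 DMSO libraries lay between 68.5 and 70.5 CPM, a gap of 0.785 of the range. Each is a library farther from its group than Dixon's 95% limit. Of 46 groups of values checked for 23 members these 2 exceeded it, and chance exceeds it in about 1 of 20.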

How the results depend on the processing

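The number of members that rose was 9 to 15 over 19 alternatives, and 12 to 15 when 1 library was left out. Lhx4, Lhx6, Dlx3, Prrx1, Irx3 and Pbx3 passed as higher in all 19, and Lhx2, Lhx5 and Six3 in all 18 that tested them. No called member changed direction. The number of members that fell was 1, and became 2 with RLE factors, in DESeq2 and without EPZ011989 replicates 2 and 4, 0 with upper-quartile factors, and 0 to 2 when 1 library was left out. Leaving out 1 library gave 1861 to 2939 rises and 781 to 2377 falls over all genes, 7 to 13 rises and 1 to 3 falls among other homeobox genes, and 0 to 2 falls among cofactors. Falls over all genes numbered 776 with upper-quartile factors. Falls among other homeobox genes numbered 2 in DESeq2 and 3 without EPZ011989 replicates 2 and 4, and falls among cofactors 1 in each. The causes were not tested.

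Replicate numbers are shared between groups, but same-numbered libraries did not deviate together (r = 0.0444, -0.206, -0.199 and 0.0825 across genes). Only 1 library correlated best with its own number in the other group. With the replicate number as a block, rises fell from 2388 to 1550 and falls from 1174 to 471 over all genes, 9 members rose and 0 fell, and 6 other homeobox genes rose. Dlx4, Msx1, Nkx2-5, Irx6 and Nkx6-2 were not called in that fit, which has fewer residual degrees of freedom. At this depth, genes with under 12 counts per library could not be told from 0.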
